A study of Arabidopsis thaliana with 12 samples.

Results

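The nuclear genes described here encode subunits of the photosynthetic electron transport chain of Arabidopsis thaliana, and were followed in wild-type Col-0 and rrc1-3 mutant seedlings, in the dark and after red light. They were chosen by gene identifier from what their products do, with no threshold on measured values but with earlier results of these data known. They number 31 of the 27444 nuclear protein-coding genes of the annotation. Of these, 12 encode subunits of photosystem I (PSA), 11 subunits of photosystem II or its lumenal and regulatory proteins (PSB), 6 electron carriers or carrier subunits (plastocyanin PETE1 and PETE2, the Rieske protein PETC, ferredoxin FD2 and the leaf ferredoxin-NADP reductases LFNR1 and LFNR2) and 2 the gamma and delta subunits of the plastid ATP synthase (ATPC1 and ATPD). In this chain photosystem II takes electrons from water, the cytochrome b6f complex and plastocyanin pass them to photosystem I, and ferredoxin and its reductase hand them to NADP. The reaction centres themselves are encoded in the plastid, whereas most peripheral, lumenal and stromal subunits are encoded in the nucleus and imported. Dark-grown seedlings hold etioplasts without a working chain, and light detected by phytochromes starts the assembly of thylakoids and raises the transcripts of many nuclear photosynthesis genes.

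Total RNA depleted of rRNA was sequenced from whole seedlings in 12 libraries, 3 for each of 4 groups. All seedlings grew for 4 days in darkness, and the light groups then received red light of 7 µmol per square metre per second for 3 h. The treatment note in the labels names red light for every sample, also those labelled dark, so the dark groups rest on the titles and growth labels. The mutant rrc1-3 carries an altered allele of RRC1, which encodes a splicing-related protein that acts in phytochrome signalling, in the Col-0 background. The labels do not say whether replicates came from separate cultures, so p-values reflect how these libraries varied, which may be technical variation alone. Expression is available as the authors' deposited tables, with 1 pooled FPKM (fragments per kilobase of transcript, scaled to the mapped fragments of the group) per group and only genes that the authors called at a q under 0.05, so the depth behind these values is unknown and no spread between libraries can be given. The dark and red light tables of rrc1-3 against Col-0 hold no change smaller than 0.58 on the log2 scale (1.49-fold), and the table of red light against dark in rrc1-3 none below 0.29. A member that is not listed may therefore have changed by less than those sizes, or by more without passing the authors' test. A table of red light against dark in Col-0 was not analysed here. In the mutated gene RRC1 itself, reads spliced across the intron at chr5:8634834-8635302 (TAIR10) went with the genotype labels. They were at least 173 in every dark Col-0 library and 165 in every light one. In rrc1-3 they were at most 12 in every dark library and 20 in every light one. This intron was taken as the listed RRC1 intron with the smallest edgeR p between the labelled genotypes. It is therefore not an independent check of those labels, and it does not check dark against light.

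In darkness the mutant held more of most of these transcripts than the wild type. The authors' deposited dark table listed 20 of the 31 members, and all 20 were higher in rrc1-3, while 11.0% of nuclear protein-coding genes were listed as higher and 8.68% as lower (19.7% in either direction). Of all 5394 nuclear protein-coding genes listed, 55.8% were higher. The members' log2 changes ran from 0.59 to 1.82 with a median of 1.09, against a median of 0.95 over all 3011 listed higher genes. Their levels were also far above those of the other listed genes, with a median of 67.4 FPKM in Col-0 and 151 in rrc1-3, against 3.48 and 6.96 over all listed higher genes. Levels are not available for all unlisted genes, so the share listed among genes of a like level cannot be given. The part of level in these calls was not tested. In RNA of whole seedlings, more cells of a type and more RNA per cell cannot be told apart.

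Photosystem I contributed 9 of the 20, out of its 12 members. PSAH2, one of a pair of genes for the subunit that docks mobile antenna during state transitions, was listed in the authors' deposited table at 39.9 FPKM in Col-0 and 95.3 in rrc1-3 (log2 change 1.26). Its copy PSAH1 went from 81.3 to 175 FPKM (log2 change 1.11). On the stromal side, where ferredoxin docks, PSAD1 was listed at 67.1 and 156 FPKM (log2 change 1.21) and PSAE1 at 81.2 and 183 FPKM (log2 change 1.17). The second PSAE gene, PSAE2, had the smallest change of the 9 listed, from 116 to 180 FPKM (log2 change 0.63, authors' q = 0.0282), and the second PSAD gene, PSAD2, was not listed. PSAF, which docks plastocyanin on the lumenal side, went from 86.3 to 174 FPKM (log2 change 1.01). The peripheral membrane subunits PSAG (103 to 226 FPKM), PSAK (49.8 to 107 FPKM) and PSAL (112 to 205 FPKM) were also higher in the authors' deposited table. PSAN and PSAO were not listed.

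**Figure D1:**
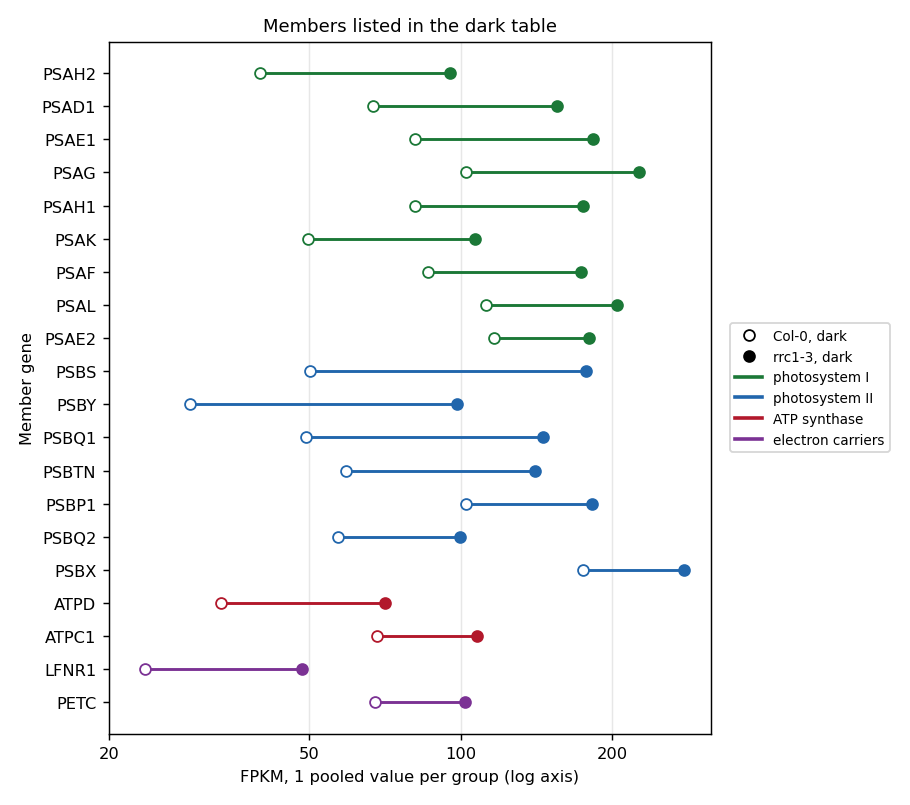
Levels of the 20 members listed in the authors' deposited dark table, in FPKM on a log axis, as 1 pooled value for Col-0 (open circles) and 1 for rrc1-3 (filled circles), coloured by complex. Every filled circle lies to the right of its open circle, with the widest gaps at PSBS (50.3 and 177 FPKM) and PSBY (29.0 and 98.4 FPKM).

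The largest differences in the dark belonged to photosystem II, of which 7 of 11 members were higher. PSBS (AT1G44575, region chr1:16871696-16873383), the sensor of lumen pH in the dissipation of excess light as heat, stood at 50.3 FPKM in Col-0 and 177 in rrc1-3, a 3.53-fold difference (log2 change 1.82) in the authors' deposited table. PSBY (AT1G67740, region chr1:25394068-25395154), a small membrane protein beside cytochrome b559, stood at 29.0 and 98.4 FPKM, a 3.39-fold difference (log2 change 1.76). Among the lumenal proteins that stabilise the manganese cluster, PSBQ1 went from 49.4 to 146 FPKM (log2 change 1.56), PSBQ2 from 57.0 to 99.9 FPKM (log2 change 0.81) and PSBP1 from 102 to 182 FPKM (log2 change 0.83). The remaining listed members were the lumenal subunit PSBTN, from 59.2 to 141 FPKM, and the small membrane subunit PSBX, from 175 to 278 FPKM. Neither PSBO gene, which encode the largest extrinsic protein of the manganese cluster, was listed, nor were PSBR and PSBW.

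Of the 6 carriers only PETC and LFNR1 were listed in the dark. PETC, the Rieske iron-sulfur protein of the cytochrome b6f complex, had the smallest change of all listed members, from 67.7 to 102 FPKM (log2 change 0.59). LFNR1 went from 23.6 to 48.4 FPKM (log2 change 1.04) in the authors' deposited table. The soluble carriers on either side of photosystem I, PETE1, PETE2 and FD2, were not listed, nor was LFNR2. Both ATP synthase subunits were higher, ATPD from 33.4 to 70.9 FPKM (log2 change 1.09) and ATPC1 from 68.2 to 108 FPKM (log2 change 0.66). Among the 7 pairs of copies, both genes were higher for PSAE, PSAH and PSBQ, 1 of the pair was listed for PSAD and LFNR, and neither for PSBO and PETE. Members without introns in their annotated coding transcript were listed as higher in 7 of 11 cases, and members with introns in 13 of 20.

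Several measures moved with the dark result, and their part in it was not tested. Direction in the dark table followed the length and GC content of the exons over all listed genes. The share of higher genes rose from 26.2% in the shortest quintile to 79.4% in the longest, and from 22.0% in the quintile of lowest GC to 80.7% in that of highest GC. The listed members were short, with 8, 9 and 3 in the first 3 quintiles of length and none in the longer ones, and 9 of the 20 were in the quintile of highest GC content. Over the 2360 other listed genes within the members' ranges of length (607 to 1834 bases) and GC (38.2% to 47.9%), 52.2% were higher. The regions measured for ATPD, PSAG, LFNR1, PSAH1 and PSAE2 also span at least 1 other whole gene, so reads of neighbours may be included, and 15 of the 20 listed members have regions that do not. Root hair genes, a list for another cell type, were higher for 5 of 6 genes (EXPA7, LRX1, COW1, EXPA18 and PRP3), with a summed level of 5.65 FPKM in Col-0 and 16.1 in rrc1-3 and with RHD6 not listed. Of 6 seed genes, 3 were higher and 1 lower, with a summed level of 25.7 FPKM in Col-0 and 10.3 in rrc1-3. The lower gene was EM6, from 24.1 to 6.34 FPKM.

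Where listed, genes of neighbouring parts of the pathway were mainly higher in the dark. Over all nuclear protein-coding genes, 11.0% were listed as higher and 8.68% as lower. Of 10 further nuclear subunit genes, 4 were higher and 2 lower. PSB28, a photosystem II assembly subunit, went from 5.63 to 16.4 FPKM, and FD1, the minor leaf ferredoxin, from 70.5 to 184 FPKM. PETM, a small subunit of cytochrome b6f, went the other way, from 179 to 114 FPKM, as did AT1G51400, a photosystem II protein annotated like PSBTN, from 168 to 87.0 FPKM in the authors' deposited table. Of 15 assembly factors 6 were higher and none lower, with LQY1, for photosystem II repair, at 10.4 and 22.5 FPKM and THF1, for thylakoid formation, at 46.4 and 98.1 FPKM. Of 13 regulators of electron flow 5 were higher and 1 lower, the largest being TROL, the thylakoid anchor of ferredoxin-NADP reductase, at 20.4 and 58.2 FPKM. Of 20 antenna genes 15 were higher and 2 lower. Of 32 plastid-encoded subunit genes, 6 were listed, the lowest share of these lists, and all 6 were higher, with PSBK at 4759 and 13697 FPKM.

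After 3 h of red light few of these transcripts were listed as different between the genotypes. The authors' deposited red light table held 3 of the 31 members, 1 higher and 2 lower, while 14.0% of nuclear protein-coding genes were listed in either direction, 7.31% as higher and 6.72% as lower. Of all 3852 listed, 52.1% were higher. The share of members listed, in either direction, was thus near or below that of all genes. All 3 belonged to photosystem II. PSBY was at 214 FPKM in Col-0 and 437 in rrc1-3, a 2.04-fold difference (log2 change 1.03). PSBW, a small membrane subunit that stabilises supercomplexes with the antenna, was at 893 and 573 FPKM (log2 change -0.64). PSBR, which links the lumenal proteins to the core, was at 1558 and 1038 FPKM (log2 change -0.59), and its region chr1:29736016-29740179 also spans the whole gene of RECA1 (AT1G79050). Over all genes listed in red light, the share of higher genes ran from 20.7% in the shortest quintile of exon length, which held 2 of the 3 members, to 78.3% in the longest. It ran from 20.4% in the quintile of lowest GC to 80.7% in that of highest GC, and the upper 3 of these quintiles held 1 member each. Of the 1679 other listed genes within the members' ranges of length and GC, 46.1% were higher, and the part of length and GC in these calls was not tested. No photosystem I subunit, carrier or ATP synthase subunit was listed, so 19 of the 20 members higher in the dark were absent from the red light table. That absence is not a test of a difference between the conditions, which pooled values do not allow. Among the further genes, PETM was again lower (590 and 302 FPKM), no assembly factor was listed, and the regulators TROL and STN8, a kinase of photosystem II proteins, were higher and CURT1C lower. Of the antenna genes 4 of 20 were higher, and of the plastid-encoded subunits 5 of 32 were higher. The same 5 root hair genes were higher, at a summed 4.38 and 12.3 FPKM. Of 6 seed genes 3 were higher and 2 lower, at a summed 69.0 FPKM in Col-0 and 41.4 in rrc1-3.

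**Figure D2:**
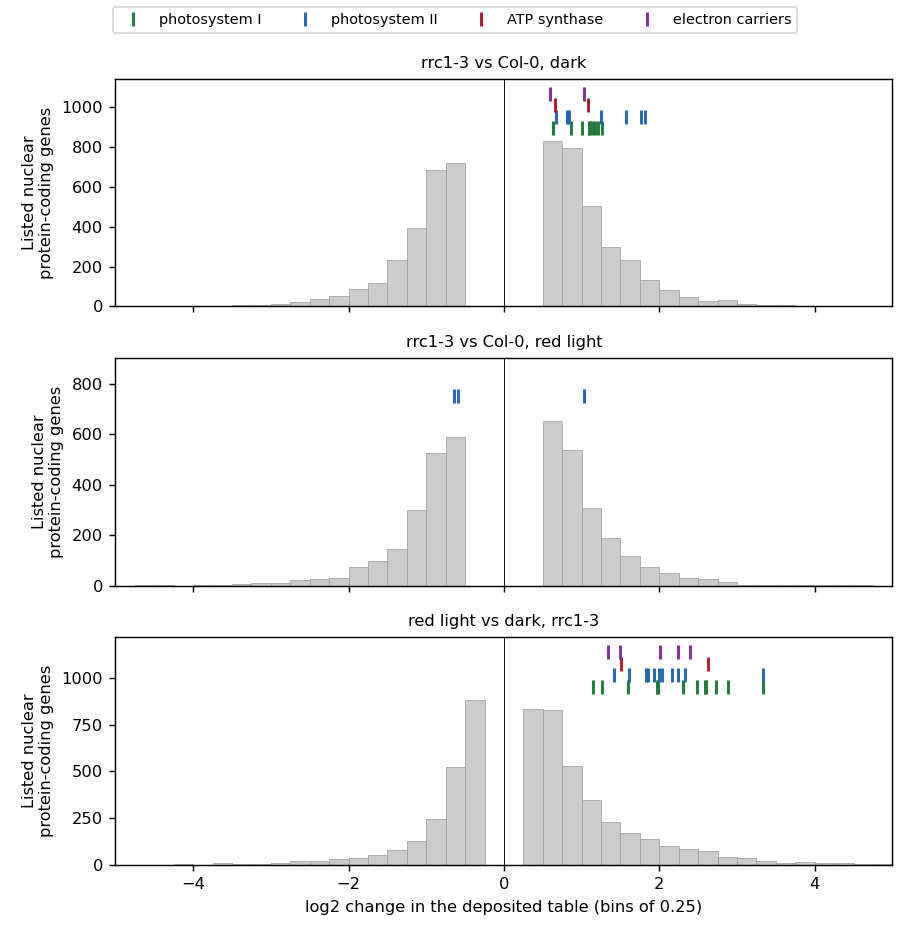
Number of listed nuclear protein-coding genes by log2 change in bins of 0.25 (grey bars) in each of the authors' deposited tables, with the log2 change of each listed member marked above by complex. Ticks lie to the right of 0 for all 20 members in the dark and all 30 in the light response, and on both sides for the 3 members in red light. The empty middle of each panel is the range in which no gene is listed, and changes beyond 5 are not drawn.

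In rrc1-3, nearly all of these nuclear transcripts were higher in red light than in the dark. In the authors' deposited table of red light against dark, 30 of 31 members were listed and all 30 were higher in red light, beside 12.8% of nuclear protein-coding genes listed as higher and 7.49% as lower (20.3% in either direction). Of all 5572 nuclear protein-coding genes listed, 63.1% were higher. The members' log2 changes ran from 1.14 to 3.34 with a median of 2.03, against a median of 0.79 over all 3516 listed higher genes. LFNR2 was the 1 member not listed. This table shares its dark libraries with the dark genotype table and its light libraries with the red light genotype table, so the results of the 3 tables are not independent.

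Photosystem I held the largest response. PSAH2 went from 92.1 FPKM in the dark to 932 in red light, 10.1-fold (log2 change 3.34), whereas its copy PSAH1 went from 169 to 404 FPKM (log2 change 1.26). In the dark PSAH1 stood above PSAH2, and in red light the order was the opposite. The region measured for PSAH1 spans 3236 bases and the whole gene AT3G16130, so its level may include reads of that gene. PSAK (103 to 760 FPKM), PSAN (116 to 770 FPKM) and PSAO (142 to 860 FPKM) followed, all peripheral subunits, with deposited log2 changes of 2.88, 2.73 and 2.60. PSAD2 went from 53.7 to 322 FPKM (log2 change 2.58) and its copy PSAD1 from 150 to 592 FPKM (log2 change 1.98), so PSAD1 stayed the higher of the pair. PSAE1 went from 177 to 869 FPKM, 4.92-fold. PSAE2, with the smallest change of the 30, went from 173 to 383 FPKM (log2 change 1.14), so this pair was nearly level in the dark and apart in red light. The region measured for PSAE2 spans 15609 bases and 3 other whole genes (AT2G20270, AT2G20280 and AT2G20290). PSAF reached 934 FPKM from 168, PSAL 774 from 198 and PSAG 662 from 218.

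**Figure D3:**
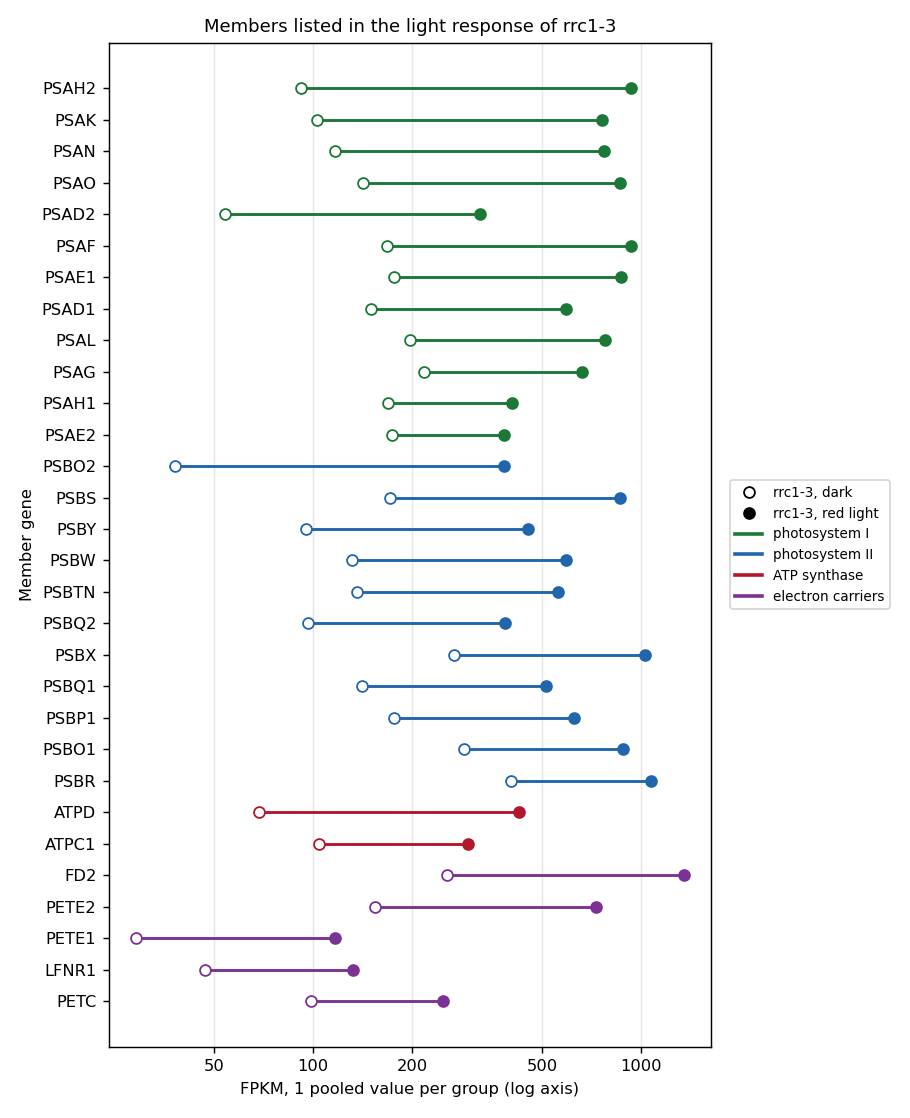
Levels of the 30 members listed in the authors' deposited table of red light against dark in rrc1-3, in FPKM on a log axis, as 1 pooled value for the dark (open circles) and 1 for red light (filled circles), coloured by complex. Every filled circle lies to the right of its open circle, and the longest lines are those of PSAH2 (92.1 to 932 FPKM) and PSBO2 (38.0 to 383 FPKM).

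In photosystem II the change was largest for PSBO2, from 38.0 to 383 FPKM, 10.1-fold (log2 change 3.33), while PSBO1 went from 287 to 881 FPKM (log2 change 1.62) and remained the higher of the pair. PSBQ1 (141 to 512 FPKM) and PSBQ2 (96.4 to 384 FPKM) changed by nearly the same amount, with log2 changes of 1.86 and 1.99. PSBS went from 171 to 860 FPKM (log2 change 2.33) and PSBY from 95.1 to 451 FPKM (log2 change 2.24). The 2 members lower in rrc1-3 than in Col-0 under red light still responded in the mutant, PSBR from 401 to 1069 FPKM (log2 change 1.41) and PSBW from 132 to 591 FPKM (log2 change 2.17), per the authors' deposited table. PSBX reached 1025 FPKM, PSBP1 626 and PSBTN 558.

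The soluble carriers, not listed in the dark, responded to light in the mutant. Ferredoxin FD2 went from 256 to 1348 FPKM (log2 change 2.40), the highest red light level of any member in the authors' deposited table. Both plastocyanin genes responded, PETE2 from 155 to 727 FPKM (log2 change 2.23) and PETE1 from 28.9 to 117 FPKM (log2 change 2.01), and PETE2 was higher than PETE1 in both conditions. PETC went from 98.7 to 249 FPKM (log2 change 1.34) and LFNR1 from 46.8 to 132 FPKM (2.83-fold). ATPD went from 68.5 to 424 FPKM (log2 change 2.63) and ATPC1 from 104 to 297 FPKM (log2 change 1.51), so ATPC1 was the higher of the 2 in the dark and ATPD in red light. The region measured for ATPD also spans the whole gene AT4G09649, so its level may include reads of that gene.

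Sorted by table, 1 member (PSBY) was higher in all 3 tables, 19 were higher in the dark and in the light response, and 2 (PSBR and PSBW) were lower in red light and higher in the light response. A further 8 were listed in the light response alone, namely PSAD2, PSAN, PSAO, PSBO1, PSBO2, PETE1, PETE2 and FD2, and LFNR2 in none. In the dark, the 20 members listed in the genotype table and the 10 others with values had overlapping levels in rrc1-3, with medians of 146 FPKM (46.8 to 269) and 137 FPKM (28.9 to 401) in the authors' deposited table of the light response. Members without introns were listed as higher in the light response in 11 of 11 cases and members with introns in 19 of 20. In this table the share of higher genes over all listed genes varied less with length, from 58.7% in the shortest quintile to 70.6% in the longest. Further nuclear genes of the pathway were higher as well, for 7 of 10 other subunits and 12 of 15 assembly factors. So were 10 of 13 regulators and 19 of 20 antenna genes, beside 12.8% of all nuclear protein-coding genes. Of 32 plastid-encoded subunits 6 were higher, the lowest share of these lists. No gene of these lists was lower. HCF173, needed for translation of the plastid psbA transcript, went from 8.95 to 100 FPKM (log2 change 3.48). No root hair gene was listed, while 6 of 6 seed genes were higher, at a summed 37.8 and 59.6 FPKM.

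Because the members responded together, their promoters were searched for 3 short motifs on both strands, from 250 bases before to 50 bases after the annotated start. The G-box (CACGTG), a core bound by bZIP factors such as HY5 and by bHLH factors such as the PIFs, was present in 12 of 31 members (38.7%) and in 7.6% of 27443 nuclear protein-coding promoters. The I-box (GATAAG), known from promoters of light-responsive photosynthesis genes, was present in 18 of 31 (58.1%) and in 14.7% of all. At least 1 of these motifs was in 25 of 31 members (80.6%) and in 21.1% of all promoters, and both were in 5 members (16.1%; PSAH1, PSAH2, PSBQ1, PSBQ2 and PSBTN) and in 1.29% of all. The evening element (AAAATATCT), a clock motif, was in 1 of 31 members (3.23%) and in 2.78% of all. No motif letters are contained in another of the 3, and a match is a description of the window and not a site. Members higher in the dark were 8 of the 12 with a G-box and 12 of the 19 without, and 13 of the 18 with an I-box and 7 of the 13 without.

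The promoters of PSAH2, the member with the largest response, and of the PSBQ pair are shown because they hold both motifs, and those of PSBR and PSBW because these were the members lower in red light. All are RefSeq sequences of TAIR10.1, 5′ to 3′ along the gene, with G-box and I-box letters of either strand in capitals. The annotated start lies after base 250 of each, and differs by 0 to 117 bases from the start of the region measured by the authors.
PSAH2 (chr1:19454548-19454847, plus strand): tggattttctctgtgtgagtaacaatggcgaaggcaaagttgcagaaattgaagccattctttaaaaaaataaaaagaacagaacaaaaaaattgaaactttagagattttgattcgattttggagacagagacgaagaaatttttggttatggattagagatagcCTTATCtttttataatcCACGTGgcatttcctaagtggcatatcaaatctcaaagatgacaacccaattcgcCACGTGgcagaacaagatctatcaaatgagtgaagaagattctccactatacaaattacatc
PSBQ1 (chr4:11334152-11334451, plus strand): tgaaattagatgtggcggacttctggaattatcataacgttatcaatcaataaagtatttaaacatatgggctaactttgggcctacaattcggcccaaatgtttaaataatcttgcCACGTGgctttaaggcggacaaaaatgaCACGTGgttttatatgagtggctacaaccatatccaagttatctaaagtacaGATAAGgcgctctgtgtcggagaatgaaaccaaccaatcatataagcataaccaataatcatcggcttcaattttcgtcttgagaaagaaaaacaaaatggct
PSBQ2 (chr4:2673194-2673493, minus strand): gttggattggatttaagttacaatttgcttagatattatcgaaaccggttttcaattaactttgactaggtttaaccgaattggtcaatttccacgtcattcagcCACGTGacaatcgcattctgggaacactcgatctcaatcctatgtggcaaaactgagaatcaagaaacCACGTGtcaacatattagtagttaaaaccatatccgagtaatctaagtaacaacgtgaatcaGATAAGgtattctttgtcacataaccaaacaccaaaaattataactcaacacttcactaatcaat
PSBR (chr1:29735702-29736001, plus strand): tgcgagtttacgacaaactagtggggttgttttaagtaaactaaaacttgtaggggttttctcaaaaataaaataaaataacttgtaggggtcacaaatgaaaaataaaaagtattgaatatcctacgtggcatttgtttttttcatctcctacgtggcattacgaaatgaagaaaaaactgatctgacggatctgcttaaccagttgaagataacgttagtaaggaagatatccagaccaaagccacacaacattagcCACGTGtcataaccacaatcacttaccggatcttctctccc
PSBW (chr2:13020262-13020561, minus strand): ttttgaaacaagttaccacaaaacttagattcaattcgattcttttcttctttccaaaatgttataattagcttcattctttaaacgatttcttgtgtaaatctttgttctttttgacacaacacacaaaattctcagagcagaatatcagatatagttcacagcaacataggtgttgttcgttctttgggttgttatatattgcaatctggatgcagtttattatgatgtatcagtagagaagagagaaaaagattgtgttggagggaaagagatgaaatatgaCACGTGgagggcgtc
Between the G-boxes and the start lie 61 and 6 bases in PSAH2, 127 and 99 in PSBQ1, and 139 and 71 in PSBQ2. For the I-boxes of the same genes the distances are 78, 47 and 9 bases. PSAH1 also holds both motifs and is not shown. Its I-box and G-box begin at bases 2 and 19 after the annotated start, and its measured region begins 113 bases downstream of that start. The single G-boxes of PSBR and PSBW begin at bases 10 and 36 after the annotated start. The regions measured by the authors begin 64 and 117 bases downstream of that start, so both G-boxes lie before them.

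Splicing was examined next, since RRC1 acts in splicing and 20 of the 31 members have introns. Splicing features with usable reads were listed for 0 of 20 members with introns for rrc1-3 against Col-0 in the dark. The counts were 1 of 20 in red light and 1 of 20 in the light response of rrc1-3. Over all 22245 genes with introns, 18.2%, 17.7% and 2.77% had such a feature. For rrc1-3 against Col-0 in the dark, 52.7% of 5962 features were called in the edgeR test, which no member feature could enter. The only member intron with usable reads was the first intron of LFNR2 (AT1G20020), the member whose expression was listed nowhere. This coding intron, 1 of 8, lies at chr1:6942956-6943227 on the plus strand (272 bases, TAIR10.1). It is shown because the reads at its ends differ below, beside the shorter first intron of its copy LFNR1 (AT5G66190, chr5:26452801-26452907, minus strand, 107 bases), an intron that was not listed in any splicing table. Capitals mark the first 6 and last 3 bases of each intron, the parts read by the splicing machinery at the 5′ and 3′ ends.
LFNR2 intron 1: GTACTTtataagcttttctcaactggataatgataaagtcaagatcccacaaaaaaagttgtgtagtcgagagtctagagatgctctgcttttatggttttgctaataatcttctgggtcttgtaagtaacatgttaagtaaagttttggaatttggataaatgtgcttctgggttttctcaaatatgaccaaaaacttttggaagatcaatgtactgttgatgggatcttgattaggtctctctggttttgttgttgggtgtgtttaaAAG
LFNR1 intron 1: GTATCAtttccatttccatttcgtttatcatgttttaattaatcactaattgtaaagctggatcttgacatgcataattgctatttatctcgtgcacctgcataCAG
Of the 3 annotated LFNR2 transcripts, 2 splice the intron and have 1110 coding bases, and 1 (NM_001332422.1) retains it and has 768 coding bases that begin downstream of it. Read on in frame from the 105 coding bases of exon 1, the retained intron meets a stop codon that ends 30 bases into it.

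Relative to spliced reads, reads over the 2 ends of this intron changed in opposite directions between the genotypes. In Col-0 in red light the 3 libraries held 469, 517 and 597 reads over the 5′ boundary, 299, 242 and 353 over the 3′ boundary, and 1004, 1032 and 1197 spliced reads. The 3 libraries of rrc1-3 in red light held 225, 265 and 409 reads over the 5′ boundary, 399, 451 and 688 over the 3′ boundary, and 738, 834 and 1052 spliced reads. Each Col-0 library thus had more reads at the 5′ boundary and each rrc1-3 library more at the 3′ boundary. The ratio of 3′ to 5′ boundary reads was 0.566 ± 0.0876 in Col-0 and 1.72 ± 0.0480 in rrc1-3 (SD, n = 3 each), and the groups did not overlap. In an edgeR test of right over left boundary reads over 4444 listed introns, 11.2% were called. LFNR2 had a log2 change of 1.61 (edgeR adjusted p = 1.42e-06) and ranked 4 by p, while the median intron changed by 0.02. Right over left is 3′ over 5′ for plus-strand genes such as LFNR2, and the reverse for minus-strand genes. With both strands mixed, the median cannot show whether a shift towards 3′ ends was shared. The ratio of boundary reads was chosen for testing after the reads were seen.

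**Figure D4:**
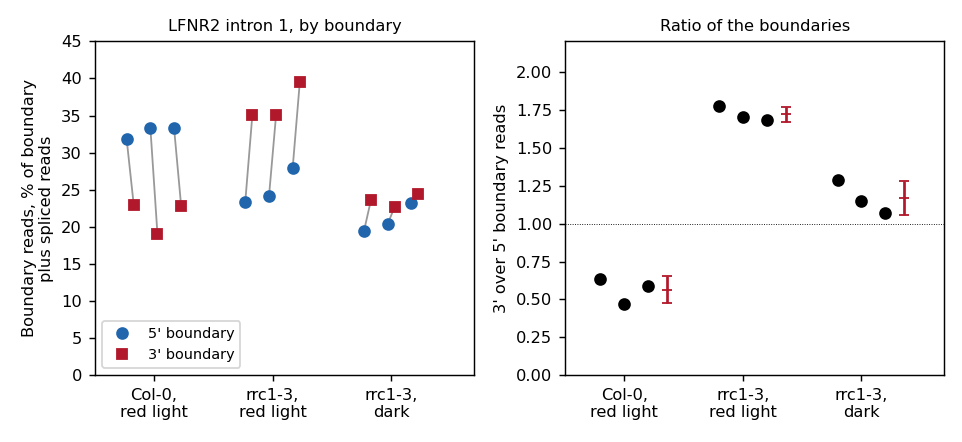
Reads at the first intron of LFNR2 by library. Left, reads over the 5′ boundary (blue circles) and 3′ boundary (red squares) as a percentage of that boundary's reads plus spliced reads, with a line joining the 2 values of a library. Right, the ratio of 3′ to 5′ boundary reads per library (points) with mean and SD of 3 libraries (red). The 3′ boundary lies below the 5′ boundary in every Col-0 library and above it in every rrc1-3 library, and the mean ratios are 0.566, 1.72 and 1.17.

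Retention computed from the mean of both boundaries was 27.7% ± 0.761 in Col-0 and 31.3% ± 2.54 in rrc1-3 in red light (SD, n = 3 each), a log2 change in odds of 0.26 (edgeR adjusted p = 0.113) that did not pass the threshold of 0.05. From the 5′ boundary alone the odds fell by 0.54 on the log2 scale (edgeR adjusted p = 0.0137), and from the 3′ boundary alone they rose by 1.07 (edgeR adjusted p = 5.96e-05). The authors' deposited table gives a log2 change of -0.75 for this intron (authors' FDR 1.45e-29). Whether that value is relative to the gene's own expression is not stated in the headers. Over all 5716 features tested in red light, 56.7% were called, with a median log2 change in odds of 0.56. With the left or right boundary of introns alone, taken without regard to strand, the median was 0.40 or 0.42. The authors listed features for a difference between these groups.

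Within the mutant this intron was compared between dark and red light. The 3 libraries of rrc1-3 in the dark held 77, 100 and 103 reads over the 5′ boundary, 99, 115 and 110 over the 3′ boundary, and 320, 391 and 341 spliced reads. Retention went from 22.3% ± 1.29 in the dark to 31.3% ± 2.54 in red light (SD, n = 3 each), without overlap, a log2 change in odds of 0.67 (edgeR adjusted p = 0.00293). The median of the 822 features tested was 0.90, and 88.1% of them were called. Here too the authors listed features for a difference between these same groups. The test and the lack of overlap are therefore not independent support for a change at this intron. With TMM scaling the median was 0.13 and LFNR2 was at -0.10 (edgeR adjusted p = 0.653). That setting scaled the boundary and spliced reads of a library separately, which can remove a shift shared by the listed features. The value of -0.10 is therefore relative to the other listed features and does not give the direction of retention itself. The ratio of 3′ to 5′ boundary reads was 1.17 ± 0.110 in the dark and 1.72 ± 0.0480 in red light, with a log2 change of 0.57 that did not pass (edgeR adjusted p = 0.0952, 0.664% of 753 introns called). Values of Col-0 in the dark at this intron were not analysed here.

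PSBS, the member with the largest dark difference, was also listed as a splicing feature, but without reads that can be used. The row covers its last intron, 466 bases at chr1:16872481-16872946 on the plus strand, yet the boundaries and junction named in it belong to another gene (AT1G17890). The same holds for every intron of this event class, which numbered 267, 272 and 20 in the dark, red light and light response tables, and no counts of these rows were used. Only the authors' own values for the intron remain. Their deposited dark table gives a log2 change of -1.03 in rrc1-3 (authors' FDR 1.04e-06). The headers do not say whether this value is relative to the gene's own expression. Its sign can therefore not be set against that of the gene's change. Their deposited light response table gives 0.78 for red light against dark in rrc1-3 (authors' FDR 8.22e-06). The splice sites are shown because an annotated transcript (NM_202242.2) retains the intron and ends its 618 coding bases inside it, against 798 coding bases in the 2 transcripts that splice it. Each line has 20 exon bases and 20 intron bases, with the first 6 or last 3 intron bases in capitals.
PSBS last intron, 5′ site: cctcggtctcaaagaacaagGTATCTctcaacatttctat
PSBS last intron, 3′ site: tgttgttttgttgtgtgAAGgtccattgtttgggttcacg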

How the data were processed

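Members and gene lists were chosen with earlier results of these data known. Reads were aligned with TopHat2 to TAIR10, per the submitters' processing notes, and versions are not given in the sources used here. The deposited expression tables have the layout of Cuffdiff and give, per the file headers, the authors' FPKM per group, log2 change, test score, p-value and q-value. They hold called genes only and no counts of genes, so the authors' calls were counted and no test of expression was run. Undefined log2 values were left out of medians, and directions were taken from the FPKM. FPKM were compared within a table, since the same group differed by factors of 0.966 and 1.03 between tables.

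The deposited splicing tables have the layout of ASpli and give, per the file headers, counts of reads per junction, boundary and library, the authors' retention fraction per group, log2 change, p-value and FDR. The second group of each table has columns X4 to X6, taken here as its libraries 1 to 3. For rrc1-3 in the dark these held the same spliced reads as columns X1 to X3 of the light response table in 100% of 166 shared features. Listed introns matched the RefSeq annotation of TAIR10.1 in 99.2% to 99.5% of cases. Retention was the mean of both boundary counts over that mean plus spliced reads. Inclusion and spliced counts were compared in edgeR 4.0.16 (R 4.3.3; glmQLFit, glmQLFTest) with terms for library, read type and read type by group, for features with at least 10 reads on average per library, adjusted by Benjamini and Hochberg over the table. The test was checked on simulated counts. Alternatives were DESeq2 1.42.0, TMM scaling, other read minimums, single boundaries and leaving out each library. Median reads per listed feature and library were 101 to 156, 106 to 157 and 183 to 335 in the 3 tables. Spliced reads were identical between libraries of a group in at most 3.02% of features, so each library was counted separately. All 31 members are accounted for, both copies of pairs are given, and other genes come from lists. Promoter windows of 300 bases came from the RefSeq genome. Tables were handled with Python 3.11.15 and pandas 2.3.3, and figures drawn with matplotlib 3.10.9.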

Additional observations from a re-analysis of the deposited data

How the results depend on the processing

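A stricter q of 0.01 left 19, 3 and 30 members listed in the dark, red light and light response tables, and a minimum of 10 FPKM left 20, 3 and 30. With an absolute log2 change of at least 1 the counts were 13, 1 and 30. Leaving out members with a copy in the list gave 12 of 17 members in the dark, 3 in red light and 17 of 17 in the light response. Regions that span no other whole gene, an alternative chosen after seeing the data, gave 15, 2 and 24. All listed members kept their direction, which these filters cannot change. The count of called member splicing features in red light was 0, and 1 from the left (5′) or the right (3′) boundary alone. In the light response it was 1, and 0 with TMM scaling or from the left boundary alone. For LFNR2 the log2 change in odds in red light was -0.54 from the left boundary, 1.07 from the right and 0.17 with TMM scaling. In the light response it was 0.34 (edgeR adjusted p = 0.158) from the left boundary, 0.90 from the right, 0.67 in DESeq2 and -0.10 with TMM scaling. TMM scaling changed the median of all features in that table from 0.90 to 0.13. It scaled the boundary and spliced reads of a library separately, which can remove a shift that the features share, and other causes were not tested. Leaving out each library in turn gave 0.16 to 0.31 in red light, 0.57 to 0.73 in the light response, and counts of 0 to 0 and 1 to 1. The log2 change of the boundary ratio ran from 1.48 to 1.70 in red light (edgeR adjusted p 1.04e-06 to 3.31e-05) and from 0.50 to 0.63 in the light response (0.0979 to 0.355). A replicate block gave 0.26 (edgeR adjusted p = 0.0928) and 0.67 (edgeR adjusted p = 0.000541) for the 2 comparisons, with the same counts of 0 and 1. Same-numbered libraries deviated from their group means with correlations of -0.01 to 0.05, so the numbers were not taken as pairs. The alternatives for member splicing in the dark were not run, since no member had a usable feature in that table. The difference of light responses needs a feature in both genotype tables and was therefore not run either. Pooled FPKM give no error for single members, and a change below 1.49-fold is not detectable in the genotype tables.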
